A study of Homo sapiens with 8 samples.

Results

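The genes described here are the D cyclins CCND1, CCND2 and CCND3, their kinase partner CDK6, and the E cyclin CCNE1. For each gene, every peak whose centre lay within 100 kb of the gene's transcription start site (hg19) was taken from 5 deposited peak lists. This gave 53 peaks of 51828 in the 5 lists: 31 of 38186 TEAD1 peaks, 17 of 12188 TEAD4 peaks, 5 of 847 HA-YAP5SA peaks, 0 of 454 YAP peaks and 0 of 153 TAZ peaks. The start sites were CCND1 at 69455873 on chromosome 11, CCND2 at 4382902 on chromosome 12, CCND3 at 41909671 on chromosome 6, CCNE1 at 30302901 on chromosome 19 and CDK6 at 92463231 on chromosome 7.

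The lists are ChIP-seq peak calls, regions of chromatin enriched by an antibody, from HuCCT1 cells, an established line from a human cancer of the bile duct (cholangiocarcinoma). All groups are this line: chromatin precipitated with antibodies against YAP, TAZ (the WWTR1 product), TEAD1 or TEAD4, or with an HA antibody for HA-YAP5SA, an HA-tagged YAP in which alanines replace the serines that LATS kinases phosphorylate. The labels do not say how YAP5SA was delivered to the cells or whether the YAP, TAZ and TEAD libraries came from cells that carried it. The series also holds input, IgG and GFP libraries, which were not analysed here. Each antibody has 1 library, so no difference between lists or genes has a replicate check, no test was made, and read depth is unknown.

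D cyclins bind CDK4 or CDK6 in G1 phase, and the complex phosphorylates the retinoblastoma protein RB, which releases E2F factors. CCNE1 is itself an E2F target, and cyclin E with CDK2 carries the cell into S phase. YAP and TAZ are growth-promoting coactivators of the Hippo pathway that reach DNA mainly through TEAD factors, and CCND1 and CDK6 have been described as YAP targets in other cells. Other genes of the step from G1 to S phase (CDK4, CDK2, CCNE2, RB1, E2F1, CDKN1A, CDKN1B and CDKN2A) were not analysed here, because the sources used here gave no hg19 start sites for them.

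TEAD1 peaks were found at all 5 genes, but the genes differed in number, in the factors present and in the strength of the peaks. CDK6 had 13 TEAD1 peaks, CCND1 9, CCND3 4, CCNE1 3 and CCND2 2. TEAD4 peaks numbered 8 at CCND1, 7 at CDK6 and 2 at CCND2, and none was listed at CCND3 or CCNE1. HA-YAP5SA peaks were listed at CCND1, with 3, and at CDK6, with 2. Every TEAD4 and HA-YAP5SA peak of these windows overlapped a TEAD1 peak by at least 1 bp, so the 53 peaks formed 31 sites: 13 with TEAD1 alone, 13 with both TEADs, 4 with both TEADs and HA-YAP5SA, and 1 with TEAD1 and HA-YAP5SA.

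**Figure D1:**
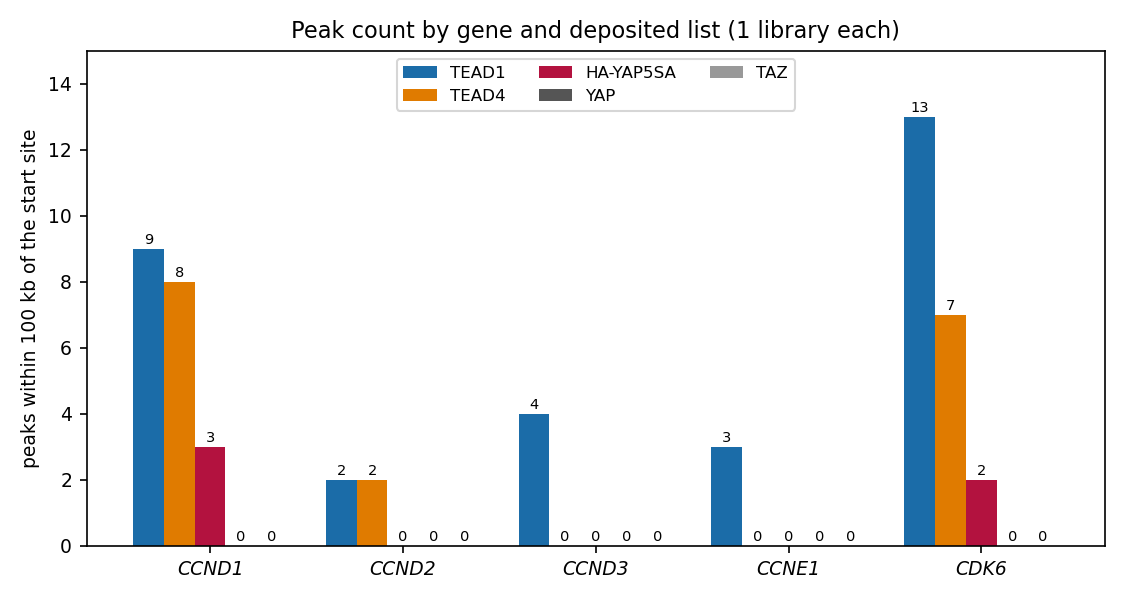
Bars give the number of peaks with a centre within 100 kb of the start site (vertical axis) for each gene (horizontal axis) and each deposited list (colour), 1 library per list and no error bars. CDK6 and CCND1 carry 13 and 9 TEAD1 peaks and all 5 HA-YAP5SA peaks, and the YAP and TAZ bars are at 0 for every gene.

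The counts were set beside those of 15179 tiles of 200 kb, the width of the windows, over chromosomes 1 to 22 and X. A tile held 2.50 TEAD1 peaks on average (median 2), and 32.5% of tiles held none. At least as many TEAD1 peaks as at CDK6 were found in 0.955% of tiles, as many as at CCND1 in 4.77%, as many as at CCND3 in 27.5%, as many as at CCNE1 in 38.3% and as many as at CCND2 in 50.8%. CDK6 and CCND1 thus stood in the upper tail of the tiles, while the other 3 genes had counts that are common in the genome. For TEAD4, 0.435% of tiles had at least the 8 peaks of CCND1, 0.804% at least the 7 of CDK6 and 19.6% at least the 2 of CCND2. For HA-YAP5SA, 0.0725% of tiles had at least the 3 peaks of CCND1 and 0.52% at least the 2 of CDK6. Tiles include regions without genes and were not matched to gene starts, so these shares are a description.

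**Figure D2:**
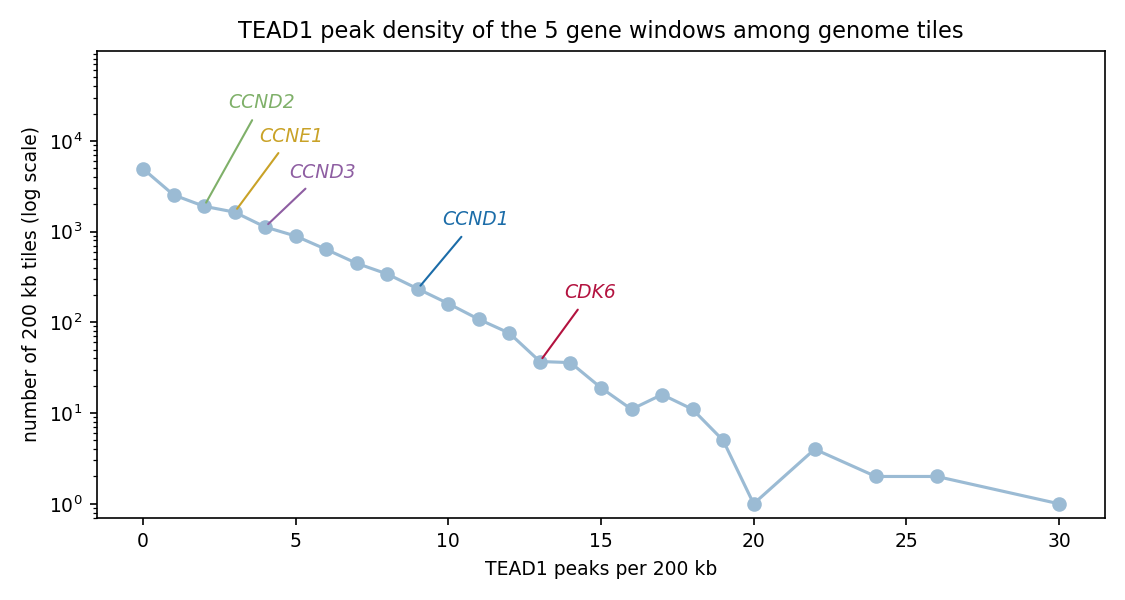
Points give the number of 200 kb tiles (log scale, vertical axis) that hold each number of TEAD1 peaks (horizontal axis), with the 5 gene windows marked at their own counts. CCND2, CCNE1 and CCND3 sit at 2, 3 and 4 peaks, counts that many tiles share, and CCND1 and CDK6 sit at 9 and 13.

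Part of the contrast in peak number came from distant peaks. Within 50 kb of the start, CDK6 had 5 TEAD1 peaks, CCND1, CCND3 and CCNE1 had 3 each and CCND2 had 2. Within the same 50 kb, TEAD4 peaks numbered 2 at CCND1, 2 at CCND2, 2 at CDK6, 0 at CCND3 and 0 at CCNE1, so the genes with and without TEAD4 were as in the full window. The separation of CCND1 from CCND3 and CCNE1 in TEAD1 count therefore came from the 6 CCND1 peaks that lie more than 50 kb away.

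**Figure D3:**
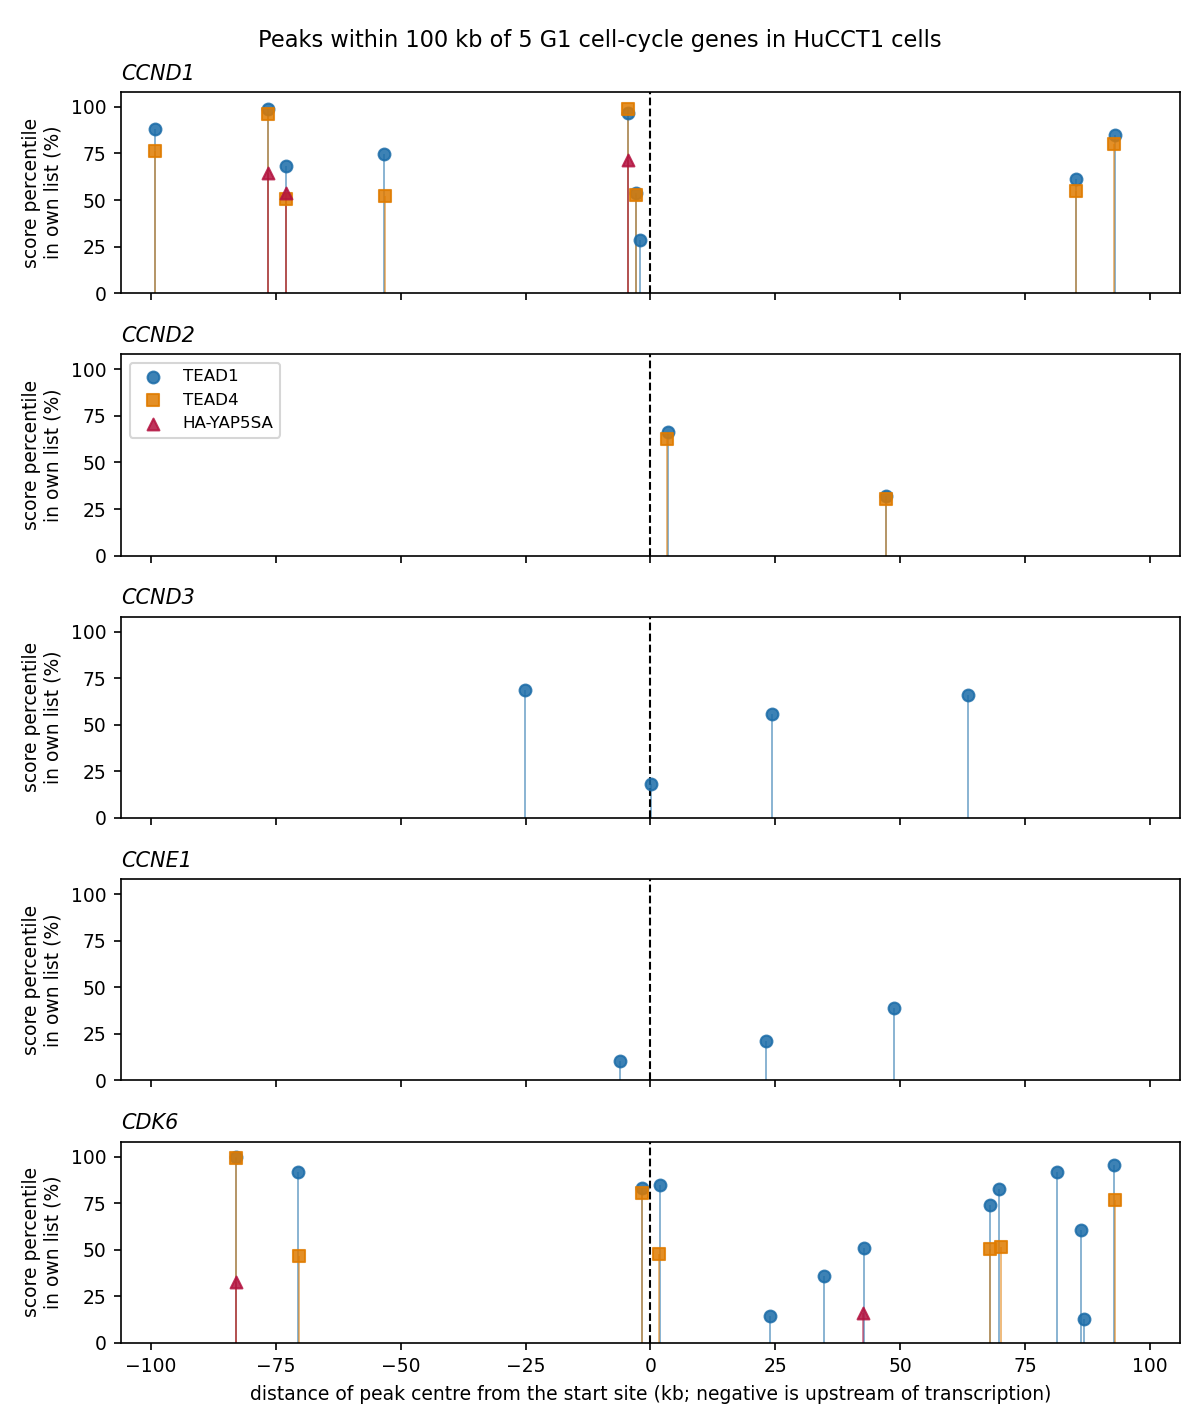
Each panel is 1 gene, with the distance of each peak's centre from the start site in kb on the horizontal axis (negative is upstream) and the percentile of its score within its own list on the vertical axis. CCND1 and CDK6 carry high-percentile TEAD1 and TEAD4 peaks close to the start and beyond 50 kb, and CCND3 and CCNE1 carry TEAD1 peaks alone.

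Scores are the authors' own values per peak, on a scale that is not stated, and were compared only within a list. CCND1 (gene ID 595), the D cyclin most often raised in carcinomas, showed its peaks in 3 groups. Close to the start, a cluster of 3 TEAD1 peaks lay 2.08 to 4.46 kb upstream. The strongest of them (chr11:69450990-69451845, hg19) had a TEAD1 score of 1071, rank 1215 of 38186. Its TEAD4 partner (chr11:69451026-69451747) scored 1036 and was rank 140 of 12188, the highest TEAD4 peak of the CCND1 window. An HA-YAP5SA peak (chr11:69451244-69451598) with score 159, rank 244 of 847, lay on it, its centre 4 bp from the TEAD1 centre. This was the HA-YAP5SA peak nearest to any of the 5 start sites, and all 3 factors met there.

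The other members of that near cluster were weaker and carried no HA-YAP5SA. The peak 2.90 kb upstream (TEAD1 score 193, rank 17559) had a TEAD4 partner 2.86 kb upstream (chr11:69452687-69453340, score 170.4, rank 5734), which was the nearest TEAD4 peak. The nearest TEAD1 peak of all, 2.08 kb upstream (chr11:69453450-69454143, score 120.3, rank 27198), had no TEAD4 partner and was the single CCND1 peak without one. No peak of any list covered the CCND1 start itself.

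The strongest TEAD1 peak at CCND1 lay 76.6 kb upstream (chr11:69378828-69379747), with score 1588 and rank 339. Its TEAD4 partner (chr11:69379004-69379546) scored 684, rank 463, and an HA-YAP5SA peak (chr11:69379207-69379495) scored 139.7, rank 303. TEAD1 thus ranked the distal site above the site 4.46 kb upstream, while TEAD4 and HA-YAP5SA had the opposite order. A neighbouring site 73.1 kb upstream had a much lower TEAD1 score of 274, rank 12030, and a TEAD4 score of 164, rank 5996. It nevertheless carried an HA-YAP5SA peak (chr11:69382819-69383042, score 120.2, rank 391). In the TEAD1 list, 0.262% of the peaks in the same score decile (the seventh from the bottom) overlapped HA-YAP5SA, against 17.3% in the highest decile.

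The remaining CCND1 sites carried both TEADs without HA-YAP5SA. Upstream, TEAD1 scores were 570.2 at 99.2 kb and 329 at 53.3 kb, with TEAD4 scores of 279.8 and 168. Downstream, TEAD1 scores were 228 at 85.2 kb and 488 at 93.0 kb, with TEAD4 scores of 176 and 311. The gene spans 13319 bp in RefSeq (GRCh38.p14), so the downstream pair lay well beyond it. MYEOV is the protein-coding gene before CCND1 and LTO1 a gene after it in that annotation. Peaks are grouped with a gene by distance alone, which does not show that they act on it.

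CCND2 (gene ID 894), a D cyclin with the same kinase partners, had few and moderate peaks. The TEAD1 peak nearest the start lay 3.42 kb downstream (chr12:4386032-4386622) and had the higher TEAD1 score of the pair, 258, rank 12917. Its TEAD4 partner (chr12:4386098-4386493), 3.39 kb downstream, scored 206, rank 4542. The other site lay 47.1 kb downstream, with TEAD1 score 126 (rank 26009) and TEAD4 score 118 (rank 8505). Both sites carried both TEADs, although in the TEAD1 list as a whole 7.49% of peaks in the decile of the weaker site had a TEAD4 partner. No peak lay within 100 kb upstream, and the nearest HA-YAP5SA peak was 1.17 Mb away.

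CCND3 (gene ID 896), the third D cyclin, had 4 TEAD1 peaks within 100 kb of the start used here and no peak of another list. One of them (chr6:41909265-41909921, hg19) covered the start site, with its centre 78 bp downstream, and was the single peak of the 53 that covered a start site. Its score was low, 102, rank 31233 of 38186. The highest score of the window, 276 (rank 11940), belonged to a peak 25.2 kb upstream (chr6:41934538-41935217). The other CCND3 peaks scored 201 at 24.3 kb downstream and 257 at 63.6 kb downstream, so 3 of the 4 were above the TEAD1 list median and the one on the start was the weakest.

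The promoter sequences of CCND3 are shown because a TEAD1 peak covered its start. RefSeq (GRCh38.p14) lists 3 CCND3 starts, and the 250 bases before to 50 after each are chr6:42048639-42048938, chr6:41941759-41942058 and chr6:41939156-41939455, all on the minus strand and printed 5′ to 3′. The sources used here do not say which of the 3 corresponds to the hg19 start of the peak. The gene spans 115103 bp in that annotation, so which peaks lie within 100 kb of CCND3 depends on the start chosen. The lack of TEAD4 peaks holds for the start used here. Capitals mark CATTCC, the core of the TEAD motif, searched together with its reverse complement GGAATG.
CCND3 upstream start: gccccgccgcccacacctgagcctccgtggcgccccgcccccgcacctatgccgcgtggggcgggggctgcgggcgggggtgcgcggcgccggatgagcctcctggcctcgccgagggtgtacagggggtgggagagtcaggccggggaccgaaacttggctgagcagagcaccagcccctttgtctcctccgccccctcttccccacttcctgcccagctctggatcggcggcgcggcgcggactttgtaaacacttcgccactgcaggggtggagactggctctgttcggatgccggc
CCND3 middle start: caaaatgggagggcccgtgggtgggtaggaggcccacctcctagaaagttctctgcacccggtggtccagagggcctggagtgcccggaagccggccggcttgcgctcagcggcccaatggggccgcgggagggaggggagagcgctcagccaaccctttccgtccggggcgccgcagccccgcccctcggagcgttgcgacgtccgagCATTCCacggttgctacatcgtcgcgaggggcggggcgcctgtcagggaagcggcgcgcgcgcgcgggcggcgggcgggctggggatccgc
CCND3 downstream start: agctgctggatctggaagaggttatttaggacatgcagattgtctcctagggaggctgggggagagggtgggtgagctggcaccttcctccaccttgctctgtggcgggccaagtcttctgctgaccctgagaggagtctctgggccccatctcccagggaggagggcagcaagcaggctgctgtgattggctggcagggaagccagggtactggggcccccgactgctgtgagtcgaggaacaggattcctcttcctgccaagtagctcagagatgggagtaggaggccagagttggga
The motif was found once, in the middle sequence, beginning 41 bases before the start. Of all 35116 promoter sequences of the same length, 14.0% held CATTCC or GGAATG. The table also holds 2 CDK6 promoters and 1 CCNE1 promoter, none of which contained these letters. TGANTCA, a form of the AP-1 motif searched on both strands, was in none of the 6 sequences and in 7.71% of all promoters.

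CDK6 (gene ID 1021), the kinase that the D cyclins activate, had the largest number of TEAD1 peaks and the strongest of them. That peak lay 83.0 kb upstream (chr7:92545852-92546642) with a TEAD1 score of 2923, rank 21 of 38186. Its TEAD4 partner (chr7:92545958-92546669) scored 1107, rank 117 of 12188, the highest TEAD4 peak at any of the 5 genes. The HA-YAP5SA peak there (chr7:92546157-92546421) had a score of 97.8 and only rank 573 of 847. Among the 100 highest TEAD1 peaks of the genome, 78 overlapped HA-YAP5SA with a median HA-YAP5SA rank of 102.5, and 4 of these 78 had a lower-placed HA-YAP5SA peak than the CDK6 site. The CDK6 site was therefore near the top for both TEADs and in the lower part of the HA-YAP5SA list. A further upstream site, 70.6 kb away, carried both TEADs, with TEAD1 score 685 (rank 3263) and TEAD4 score 153 (rank 6497).

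A pair of TEAD1 peaks flanked the CDK6 start. The one 1.68 kb upstream (chr7:92464531-92465287) scored 454, rank 6381, and the one 1.86 kb downstream (chr7:92460902-92461832) scored 480.2, rank 5870. Both had TEAD4 partners, which scored 316 (chr7:92464589-92465124, 1.62 kb upstream, rank 2396) and 155 (rank 6399). TEAD1 gave the flanking peaks similar ranks, whereas TEAD4 ranked the upstream one higher. RefSeq lists 2 CDK6 starts that lie 2614 bp apart in GRCh38, so distances of this size depend on the start chosen. Neither flanking peak carried HA-YAP5SA.

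Downstream of its start, CDK6 had 9 more TEAD1 peaks between 24.0 and 92.9 kb. The gene spans 231653 bp in RefSeq (GRCh38.p14) and is thus longer than the downstream side of the window. Both TEADs were present 68.0 kb downstream (TEAD1 score 322, TEAD4 score 163), 69.8 kb downstream (435 and 165) and 92.9 kb downstream (920.4 and 282). The TEAD1 peak 81.4 kb downstream (chr7:92381386-92382327) scored 698, rank 3158, and had no TEAD4 partner. In the highest decile of TEAD1 scores, to which it belongs, 114 of 3819 peaks (2.99%) lacked TEAD4. That decile runs from 629 to 3147, and this peak is in its lower part. In the decile below, 854 of 3819 peaks lacked TEAD4. The other downstream peaks with TEAD1 and no TEAD4 scored 96.8 at 24.0 kb, 135 at 34.8 kb, 179.9 at 42.8 kb, 225 at 86.2 kb and 95.1 at 86.9 kb.

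One of these, 42.8 kb downstream, carried an HA-YAP5SA peak (chr7:92420614-92420697, 84 bp wide, score 86.8, rank 713 of 847). Sites with HA-YAP5SA and TEAD1 but no TEAD4 are uncommon in the series, at 25 of 847 HA-YAP5SA peaks. Its score is close to the lowest of that list, 80.1, so it is among the weaker HA-YAP5SA calls. Neither CDK6 HA-YAP5SA peak reached the median score of its list, whereas all 3 CCND1 ones did.

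CCNE1 (gene ID 898), which encodes cyclin E1, had 3 TEAD1 peaks within 100 kb, all low in their list. The nearest and weakest lay 6.19 kb upstream (chr19:30296516-30296915, score 91.9, rank 34231). The others lay 23.1 kb downstream (score 107, rank 30044) and 48.8 kb downstream (chr19:30351496-30351812, score 143, rank 23300). None of the 3 reached the median of the TEAD1 list, 177. The TEAD4 peak nearest to the CCNE1 start was 845 kb away, and the nearest HA-YAP5SA peak was 2.55 Mb away. The lack of TEAD4 partners is common for peaks this weak: in the same TEAD1 score range, 91.9 to 143, 5.12% of 10935 peaks overlapped TEAD4. For the 4 CCND3 peaks, the list's shares by decile were 3.09% for the peak on the start and 18.6, 30.6 and 30.6% for the others. Those others lie in higher deciles than the CCNE1 peaks. Of all tiles with at least 3 TEAD1 peaks, 21.8% had no TEAD4 peak.

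Over the 5 genes, 17 of 31 TEAD1 peaks overlapped TEAD4 (54.8%, exact 95% binomial interval 36.0 to 72.7%), against 30.6% of the TEAD1 list. The TEAD1 peaks of these windows scored higher than the list as a whole, and overlap with TEAD4 is more common among high scores. The list's share in the score decile of each peak, averaged over the 31 peaks, was 43.8%, and the difference was not tested. The observed share was 8 of 9 at CCND1 (88.9%, 51.8 to 99.7%), 7 of 13 at CDK6 (53.8%, 25.1 to 80.8%), 2 of 2 at CCND2, 0 of 4 at CCND3 and 0 of 3 at CCNE1. The corresponding decile averages were 54.0% at CCND1, 56.6% at CDK6, 19.0% at CCND2, 20.7% at CCND3 and 5.21% at CCNE1. With numbers this small the intervals of CCND1 and CDK6 overlap. Of the 31 TEAD1 peaks, 5 overlapped HA-YAP5SA (16.1%, 5.45 to 33.7%), against 2.06% of the TEAD1 list and a decile average of 3.78%. That average is a coarse reference, because overlap with HA-YAP5SA rises steeply within the highest decile. The overlap was 17.3% over that decile, against 78 of the 100 highest TEAD1 peaks. The CDK6 peak of rank 21, which overlapped HA-YAP5SA, is among these 100. Of the 17 TEAD4 peaks, 4 overlapped HA-YAP5SA (23.5%, 6.81 to 49.9%), against 6.28% of the TEAD4 list. In the other direction, all 5 HA-YAP5SA peaks lay on TEAD1 and 4 lay on TEAD4, against 95.2% and 92.4% of the HA-YAP5SA list. All 17 TEAD4 peaks lay on TEAD1, against 97.1% of that list, with centres a median of 45 bp apart (5 to 329 bp). The intervals cover counting error over peaks only. Peaks of 1 library are not replicates, and the gene set was chosen with earlier results known.

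**Figure D4:**
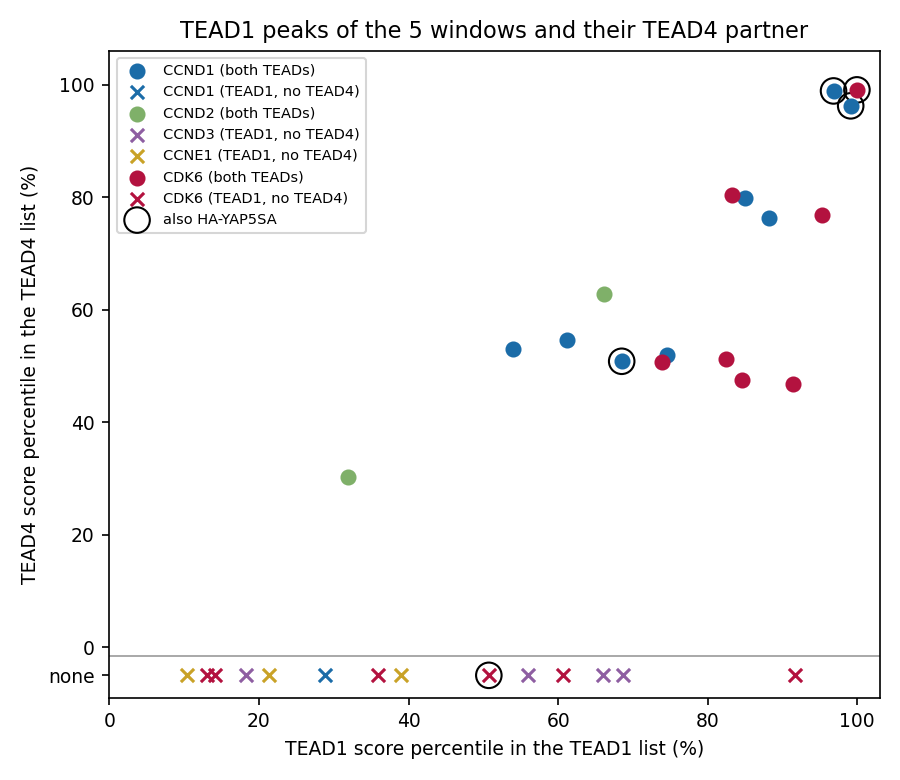
Each symbol is 1 of the 31 TEAD1 peaks, with its score percentile in the TEAD1 list on the horizontal axis and that of its TEAD4 partner in the TEAD4 list on the vertical axis. Crosses on the bottom row have no TEAD4 partner, rings mark HA-YAP5SA, and 3 of the 5 rings are in the upper right corner.

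Peak strength differed between the genes along with number. The median TEAD1 score was 435 at CDK6, 329 at CCND1, 229 at CCND3, 192 at CCND2 and 107 at CCNE1, against 177 in the whole list. CDK6 had 4 TEAD1 peaks in the highest decile of the list and CCND1 had 2, and no other gene had any. The median TEAD4 score was instead higher at CCND1 than at CDK6, 228 against 165. It was 162 at CCND2 and 162 in the TEAD4 list. Of the 8 CCND1 TEAD4 peaks, 8 reached that list's median, against 5 of 7 at CDK6. TEAD1 peaks covered 4.92% of the CDK6 window, 3.31% of the CCND1 window and 0.619% of the CCNE1 window.

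No peak of the YAP or TAZ antibody lay within 100 kb of any of the 5 starts. The nearest YAP peak was 2.56 Mb upstream of CCNE1, 3.56 Mb from CCND1, 6.40 Mb from CCND2, 16.9 Mb from CCND3 and 30.5 Mb from CDK6. The nearest TAZ peak was 3.86 Mb from CCND3. These lists are short and unevenly spread: 0.883% of the 200 kb tiles held a YAP peak and 0.329% held a TAZ peak, so an empty window is the common case. The fullest tile held 28 peaks for YAP and 16 for TAZ. Whether YAP or TAZ is bound below the authors' threshold at the CCND1 and CDK6 sites cannot be read from peak lists.

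Just outside the 100 kb limit, more peaks were listed at some genes. At CCND3 a TEAD1 peak of score 702 (rank 3120) lay 146 kb upstream, higher than the TEAD1 peaks inside, and a TEAD4 peak of score 341 lay on the same side at 146 kb. Whether these peaks lie within 100 kb of another RefSeq start of CCND3 was not examined. At CCND1 an HA-YAP5SA peak of score 229 (rank 120), higher than the 3 inside, lay 144 kb upstream. Closest to the limit were a TEAD1 peak (score 256) and a TEAD4 peak (score 118) of CCND1, both 104 kb downstream. At CDK6 the next TEAD1 peak was 138 kb downstream, at CCND2 116 kb upstream and at CCNE1 149 kb upstream.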

How the data were processed

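HuCCT1 chromatin was cross-linked with formaldehyde, sonicated and precipitated, and Illumina libraries were prepared, per the labels' protocols. The submitters' processing notes name Bowtie2 and hg19. Deposited peaks carry MACS names, a peak caller, whose version, threshold and control no source used here gives. Each list belongs to 1 library. The deposited score is the authors' value per peak, on an unstated scale that begins near 80, so a peak count reflects antibody, depth and threshold together. Starts in lists without a header were read as counted from 0 and raised by 1; starts are uncertain by 1 bp.

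Peaks with a centre within 100 kb of the 5 starts were taken, overlaps needed 1 bp, ranks and percentiles of the score were computed within each list, and intervals are exact Clopper-Pearson at 95%. Upstream and downstream follow the strand of the gene. Tiles of 200 kb begin at the first base of each chromosome and run to its last peak. No test was made, since each antibody has 1 library. Counting and overlap were tested on simulated data. The genes, lists and windows were chosen with earlier results of these data known. Peaks given by position are the highest-scoring and nearest TEAD peaks of each gene and all HA-YAP5SA peaks. Partners on the same site are given with them, and the CDK6 peaks 1.86 and 81.4 kb downstream were added after their values were seen. Alternatives were windows of 50 and 200 kb, any base in the window, peaks at or above the list median, an equal number of TEAD1 and TEAD4 peaks, overlap of 50% of the shorter peak and centres within 500 bp. Promoter sequences are RefSeq's (GRCh38.p14), matched by symbol for 3 of the 5 genes; hg19 and GRCh38 coordinates were not converted. Calculations ran in pandas 2.3.3 with NumPy 2.4.6 under Python 3.11.15, intervals came from SciPy 1.17.1, and figures from matplotlib 3.10.9.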

Additional observations from a re-analysis of the deposited data

How the results depend on the processing

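Peak numbers depended mainly on the window. With 50 kb, TEAD1 peaks numbered 3 at CCND1 and 5 at CDK6, TEAD4 peaks 2 at CCND1 and 2 at CDK6, and HA-YAP5SA peaks 2 over the 5 genes. With 200 kb, TEAD1 peaks numbered 14 at CCND1, 7 at CCND2 and 10 at CCND3, and TEAD4 peaks 2 at CCND3. CDK6 had 19 TEAD1 peaks and CCNE1 4 in that window. When lists were limited to scores no lower than their median, TEAD1 peaks numbered 1 at CCND2 and 0 at CCNE1, TEAD4 peaks 1 at CCND2, and HA-YAP5SA peaks 3. With the TEAD1 list reduced to as many peaks as TEAD4 has, TEAD1 peaks numbered 0 at CCND2, 1 at CCND3, 0 at CCNE1 and 8 at CDK6. The share with TEAD4 was then 86.7% of 15 peaks, against 73.4% of the 12188 TEAD1 peaks kept. That share was lower than the reported 54.8% in both other windows: 37.5% of 16 peaks with 50 kb and 44.4% of 54 with 200 kb. It was 63.6% of 22 peaks when lists were limited by their median. The changes in peak number follow from how each alternative is built, with fewer or more peaks counted. CDK6 had the most TEAD1 peaks of the 5 genes under each of these alternatives. Of 69 alternative values, 51 stayed within 1.5 times the value reported, or within the interval of the share. These 51 include counts of 0 that stayed at 0, which a narrower window or a score limit cannot change. They also include every count taken with any base in the window, all equal to the values reported. The tally is therefore not a measure of stability. YAP and TAZ counts were 0 in every alternative. No paired analysis was possible because each antibody has 1 library. Read depth is unknown, and a peak below the authors' threshold is not listed.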
